A study of Mus musculus with 6 samples.

Results

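Cholesterol and fatty acid synthesis was followed through 31 genes in reporter-positive cells of the embryonic mouse medial ganglionic eminence (MGE), the ventral forebrain zone that produces many cortical interneurons. The 31 genes were taken by symbol from a list of sterol and lipogenic enzymes and their Srebf control, out of 38561 genes in the count table, and all 31 were found. Of the 38561 genes 16495 had enough reads to be tested, among them all 31. Sorted tdTomato-positive cells came from 2 kinds of C57BL/6 embryo at day E11.5. Heterozygous cells (genotype Magoh lox/+; Nkx2.1-Cre; ROSAloxSTOPloxTdTomato; 2 libraries) were set against control cells (Nkx2.1-Cre;ROSAloxSTOPloxTdTomato; 4 libraries), so that the Cre driver and the reporter were common to both. The Cre acts where Nkx2-1 has been expressed, so a Magoh allele is lost only in that lineage, and the study asks what one lost allele of this exon junction complex gene does to these cells. None of the 31 genes passed the edgeR test between genotypes, where 0% of all tested genes did. For 30 of them the 95% interval lay within a 2-fold change either way, where it did for 53.7% of all tested genes.

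Cells build cholesterol from acetyl-CoA, first through the mevalonate arm to squalene and then through ring closure and a series of sterol intermediates. The transcription factors Srebf1 and Srebf2 are held in the endoplasmic reticulum membrane by Scap and the Insig proteins while sterol is plentiful, and are released to switch on these enzymes when it is scarce. Srebf1 acts more on fatty acid genes and Srebf2 more on sterol genes. The embryonic brain makes its own cholesterol, which dividing progenitors and growing axons need for membrane, and which is also attached to Sonic hedgehog.

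Promoter windows were searched for the boxes that Srebf and its partner factors are known to bind. Windows of 300 bases from RefSeq (GRCm38.p6, 250 bases before to 50 after a transcription start) were at hand for 24 of the 31 genes, 5 of them with more than 1 window. Fdps, Fdft1, Sqle, Stard4, Scd1, Scd2 and Fads1 had no window and were not searched. The NF-Y box CCAAT was found on either strand in 19 of 24 genes (79.2%), against 41.1% of all 27025 genes with a window. The Sp1 box GGGCGG was found in 20 of 24 (83.3%), against 38.2%, and the E-box CACGTG in 5 of 24 (20.8%), against 8.09%. The core of the classical sterol regulatory element, TCACCCCAC, was found in 1 of 24 (4.17%), against 0.614% of all genes, and its relaxed form TCACNCCAC, which contains it, was found in the same gene alone and in 1.44% of all genes. A match describes letters in a window and not a bound site. The comparison set was every gene with a window, expressed here or not. It was not matched for base composition or for windows per gene (32 windows for the 24 genes, 32851 for the 27025). The 4 windows that follow are shown because they hold the element core (Hmgcs1), the most CCAAT boxes of a window (Mvk, with 5), the start of the feedback gene Insig1, and the start of the fatty acid synthase gene Fasn. Capitals mark TCACCCCAC and CCAAT, including the reverse complement of either. They are printed 5′ to 3′ on the gene's strand.
Hmgcs1, chr13:119690101-119690400, plus strand: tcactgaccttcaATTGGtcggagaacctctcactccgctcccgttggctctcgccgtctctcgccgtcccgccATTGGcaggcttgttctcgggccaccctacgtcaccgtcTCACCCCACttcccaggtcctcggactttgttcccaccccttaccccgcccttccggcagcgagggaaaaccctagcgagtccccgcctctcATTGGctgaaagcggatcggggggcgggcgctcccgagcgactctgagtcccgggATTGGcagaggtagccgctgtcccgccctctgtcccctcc
Mvk, chr5:114444019-114444318, plus strand: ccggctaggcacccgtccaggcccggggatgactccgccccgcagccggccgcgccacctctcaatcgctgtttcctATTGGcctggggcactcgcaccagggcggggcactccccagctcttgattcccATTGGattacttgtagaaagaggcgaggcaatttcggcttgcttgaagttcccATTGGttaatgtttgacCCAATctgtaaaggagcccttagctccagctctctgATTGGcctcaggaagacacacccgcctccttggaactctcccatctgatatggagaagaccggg
Insig1, chr5:28071162-28071461, plus strand: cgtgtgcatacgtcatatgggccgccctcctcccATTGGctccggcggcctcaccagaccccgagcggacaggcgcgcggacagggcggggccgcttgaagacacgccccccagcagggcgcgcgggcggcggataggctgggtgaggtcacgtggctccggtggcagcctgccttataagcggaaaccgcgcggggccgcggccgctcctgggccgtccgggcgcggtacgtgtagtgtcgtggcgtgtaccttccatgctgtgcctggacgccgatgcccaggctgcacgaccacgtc
Fasn, chr11:120824498-120824797, minus strand: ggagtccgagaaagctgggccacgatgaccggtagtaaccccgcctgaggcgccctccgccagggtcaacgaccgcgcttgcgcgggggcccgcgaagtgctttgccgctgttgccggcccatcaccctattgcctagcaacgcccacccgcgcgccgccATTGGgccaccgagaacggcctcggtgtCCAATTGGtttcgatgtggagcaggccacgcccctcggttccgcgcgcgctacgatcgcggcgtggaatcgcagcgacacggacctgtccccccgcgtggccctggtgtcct
In the Hmgcs1 window the element core began 137 bases before the start. The Fasn window held 3 CCAAT boxes, 2 of them overlapping on opposite strands, and 0 GGGCGG boxes.

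The libraries held 37429290 to 49189360 counted reads, and the 31 genes together took 0.64 to 0.752% of them. Magoh itself stood at 57.1 and 48.6 CPM (read counts scaled to a common library size) in heterozygous libraries 1 and 2, against 68.1, 118, 63.6 and 74.3 CPM in controls 1 to 4. The heterozygous values lay below every control without passing the test (log2 fold change -0.62, SE 0.28, edgeR adjusted p = 0.85). Nkx2-1 and 7 further MGE markers all had enough reads to be tested, and their summed level was at least 868 CPM in every library. Heterozygous library 1 and control 2 had 0 reads from 4 Y-linked genes, against 3453 to 4291 in the others, and long transcripts were under-represented in the same pair (a long-minus-short difference of -0.48 and -0.97 log2 units, against 0.050 in heterozygous library 2 and 0.13 to 0.44 in the other controls). Sex and this length difference cannot be told apart. Differences are also given, for some genes and groups, within libraries alike in Y-linked reads. They are heterozygous library 1 minus control 2, and heterozygous library 2 minus the mean of controls 1, 3 and 4. Each of these rests on 1 heterozygous library. The libraries compared still differ in the length measure (-0.48 against -0.97 in the pair without Y-linked reads), so these differences do not remove it. The 2 differences had the same sign for 16 of the 31 genes.

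All 31 genes were expressed in every library, with 404 to 90553 reads each, and 26 of them had at least 1000 reads in each library. Their median control level was 113 CPM, against 16 CPM over all tested genes, and 29 of 31 lay above the median of all tested genes. On a scale per kilobase of exon, which allows levels of different genes to be compared, control levels spanned 79.1-fold. The stearoyl-CoA desaturase gene Scd2 was the highest at 322 CPM per kb in heterozygous cells and 329 in controls. The next in controls were the desaturase Fads2 (99.7 CPM per kb in heterozygous cells and 96.3 in controls) and the citrate lyase Acly (111 in heterozygous cells and 94.5 in controls). Fasn (76.3 in heterozygous cells and 89.3 in controls), Hmgcs1 (88 in heterozygous cells and 87.3 in controls) and Srebf2 (75 in heterozygous cells and 77.5 in controls) came after them. The ranges of Acly and Fasn over the controls overlapped those of Fads2, Hmgcs1 and Srebf2, so the order of these levels is resolved only in part. Fads2 lay above Hmgcs1, and Fads2, Acly and Hmgcs1 each lay above Srebf2, in every control. The lowest was Insig2 at 3.71 CPM per kb in heterozygous cells and 4.16 in controls, and among the next lowest was the sterol reductase Tm7sf2 at 4.12 in heterozygous cells and 5.35 in controls. Exon lengths are those of all annotated isoforms joined, so a gene with a long annotated union, such as Acaca at 17074 nt or Lss at 10787 nt, reads low on this scale.

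**Figure D1:**
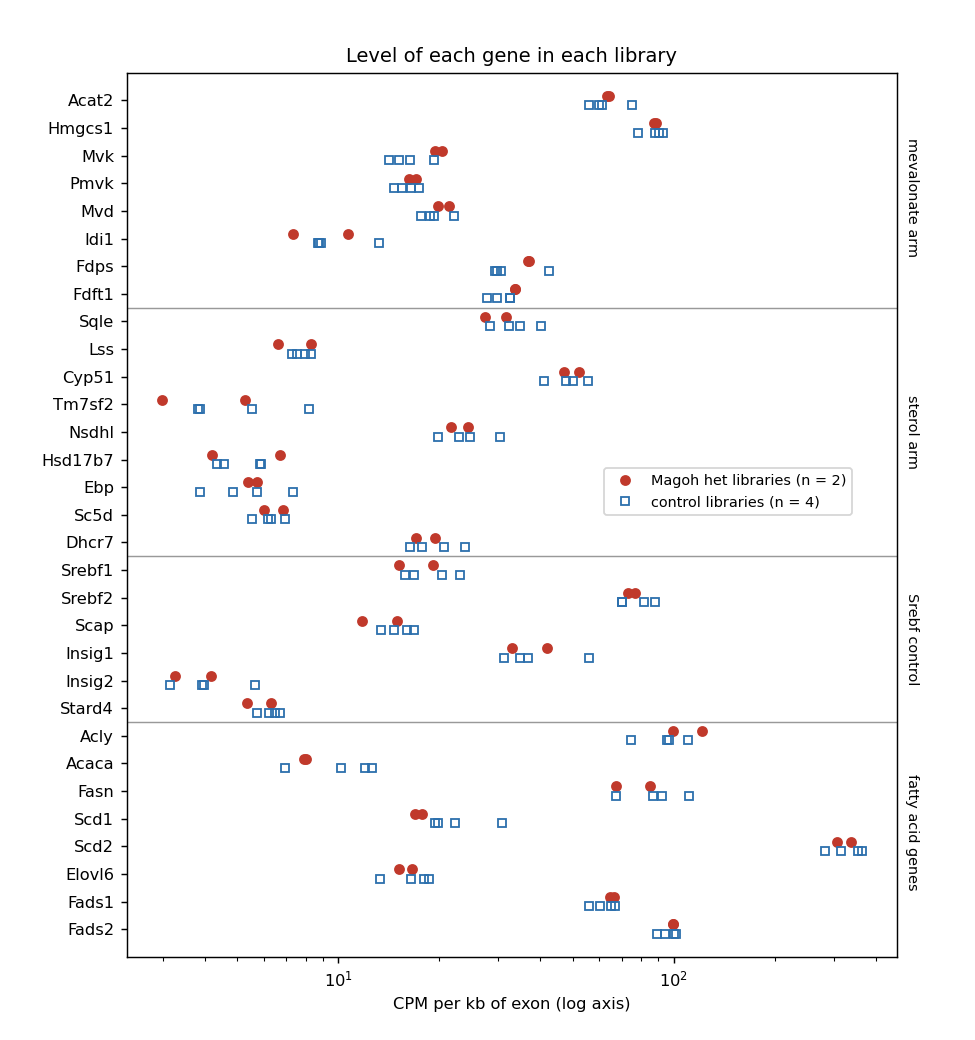
Level of each gene in each library, in CPM per kb of exon on a log axis, with filled circles for the 2 heterozygous libraries and open squares for the 4 controls, grouped by role. Scd2 stands apart at the right (322 and 329 CPM per kb on average), and for most genes the circles fall among the squares.

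Between genotypes, 0 of the 31 genes passed edgeR's quasi-likelihood test at an adjusted p under 0.05 (Benjamini-Hochberg over all 16495 tested genes), where the background was 0% of tested genes. The smallest adjusted p among them was 0.905 (edgeR). None had an unadjusted p under 0.05, against 3.98% of all tested genes in the lower and 1.75% in the higher direction. DESeq2 called 0 of the 31, against 0.484% of the genes it gave an adjusted p, and limma-voom called 0. Of the 31 log2 fold changes 14 were above 0 and 17 below (54.8%), where 53.9% of all tested genes were below. The median was -0.047, next to -0.029 over all tested genes. The median size of the difference without its sign was 0.085 log2 units, against 0.224 over all tested genes, and the median coefficient of variation between controls was 14.6%, against 24%. The part of their higher abundance in this smaller spread was not tested.

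The intervals show how much difference the data leave room for. For 30 of 31 genes (96.8%) the 95% interval of the log2 fold change lay within a 2-fold change either way, against 53.7% of all tested genes, and for 16 it lay within 1.5-fold. The exception was Tm7sf2 (-1.24 to 0.49). Both heterozygous libraries lay above all controls for 2 of the 31 genes (6.45%), where the share over all tested genes was 6.17%. They lay below all controls for 1 (3.23%), where it was 8.14%. The groups overlapped for the other 28.

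**Figure D2:**
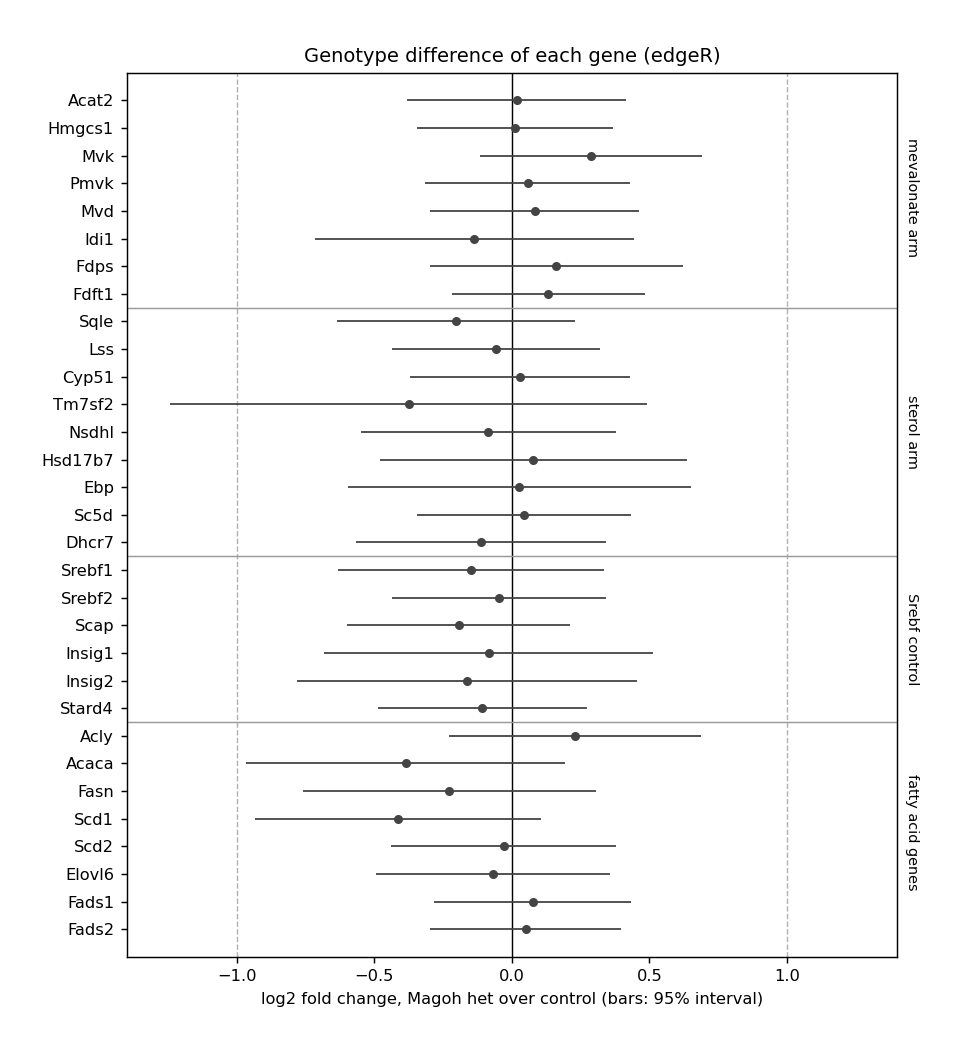
Log2 fold change of each gene, heterozygous over control (edgeR, 2 and 4 libraries), with its 95% interval as a bar and dashed lines at a 2-fold change. Every interval includes 0, and the interval of Tm7sf2 alone crosses a dashed line.

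The mevalonate arm turns acetyl-CoA into squalene. Its 8 genes had a median log2 fold change of 0.070, and 0 passed the test. Of the 8, 7 lay above 0 and 1 below, where 53.9% of all tested genes lay below. Within the pair without Y-linked reads the median was -0.010, with 4 of the 8 below 0, and the other 4 libraries gave 0.083. Acat2, the cytosolic thiolase of the first step, stood at 163 and 161 CPM in heterozygous libraries 1 and 2, against 152, 191, 142 and 155 CPM in controls 1 to 4. Hmgcs1, which condenses the next acetyl unit and whose promoter holds the element core, stood at 406 and 402 CPM in heterozygous cells, against 427, 403, 360 and 414 CPM in controls. Both heterozygous values of either gene lay inside the control range. The Hmgcs1 difference was 0.011 log2 units with an interval of -0.35 to 0.37, and the pair without Y-linked reads gave 0.010.

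Mvk, the mevalonate kinase (ENSMUSG00000041939, chromosome 5, 114444269 to 114460591, plus strand, GRCm38), had the highest log2 fold change of the 31. It stood at 51.9 and 54.4 CPM in heterozygous libraries, against 43.8, 51.6, 38 and 40.7 CPM in controls. Both heterozygous values lay above all controls, but control 2 fell just short of heterozygous library 1. The log2 fold change was 0.29 with an SE of 0.18 (edgeR adjusted p = 0.92). The difference was 0.41 among the 4 libraries with Y-linked reads and 0.006 within the pair without them. Fdft1, the squalene synthase that closes the arm, stood at 142 and 142 CPM in heterozygous cells, against 137, 137, 117 and 126 CPM in controls. It too lay above all controls, by a small margin, with a log2 fold change of 0.13 (SE 0.15). Fdps, which makes farnesyl diphosphate, stood at 155 and 156 CPM in heterozygous cells, against 129, 179, 123 and 125 CPM in controls. Control 2 was the highest of the 6, so that the sign turned within the pair without Y-linked reads (-0.21, against 0.31 among the others). The log2 fold change was 0.16 (SE 0.20), and 0.32 without control 2.

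Idi1, the isopentenyl diphosphate isomerase, was the one gene of the arm with a fold change below 0. Its level was 37.5 and 25.7 CPM in heterozygous cells, against 31.2, 46.4, 30.4 and 30.7 CPM in controls. The 2 heterozygous values lay on either side of 3 of the controls. The log2 fold change of -0.14 (SE 0.25) turned to 0.11 without heterozygous library 2. The pair without Y-linked reads gave -0.309 and the other libraries -0.262. The phosphomevalonate kinase Pmvk averaged 28.6 ± 1.09 CPM in heterozygous cells (SD, n = 2) and 27.5 ± 2.06 CPM in controls (SD, n = 4). The decarboxylase Mvd averaged 38.3 ± 1.96 CPM in heterozygous cells and 36.1 ± 3.53 CPM in controls (SD, same n). Neither differed by more than its spread between controls.

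The sterol arm carries squalene through lanosterol to cholesterol. Its 9 genes had a median log2 fold change of -0.058, with 4 above 0 and 5 below, and 0 passed. Sqle, the squalene epoxidase and a control point of the arm, stood at 175 and 152 CPM in heterozygous libraries, against 179, 223, 157 and 193 CPM in controls. Heterozygous library 2 was below every control and library 1 was not, and the log2 fold change was -0.20 (SE 0.19). It was -0.098 without control 2 and -0.104 without heterozygous library 2. The pair without Y-linked reads gave -0.351 and the other libraries -0.209. Lss, the lanosterol synthase, stood at 71.4 and 89.7 CPM in heterozygous cells, against 89.5, 78.4, 81.5 and 86 CPM in controls. Its 2 heterozygous values were the lowest and the highest of the 6. Cyp51, the lanosterol demethylase, averaged 219 ± 15.3 CPM in heterozygous cells (SD, n = 2) and 215 ± 26.3 CPM in controls (SD, n = 4).

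Tm7sf2, a sterol C14 reductase, varied most between libraries. It stood at 23.2 and 13.1 CPM in heterozygous libraries, against 16.8, 35.9, 17 and 24.4 CPM in controls. Control 2 was the highest and heterozygous library 2 the lowest, and the log2 fold change was -0.37 (SE 0.38). It ran from -0.83 without heterozygous library 1 to -0.019 without heterozygous library 2, and was -0.087 without control 2. The pair without Y-linked reads gave -0.629 and the other libraries -0.543. Dhcr7, which catalyses the last step to cholesterol, stood at 113 and 98.9 CPM in heterozygous cells, against 103, 139, 94.9 and 120 CPM in controls, all within the control range. Nsdhl, a decarboxylating dehydrogenase on chromosome X, stood at 69.4 and 61.9 CPM in heterozygous cells, against 65.3, 86.7, 56.4 and 70.3 CPM in controls, also within the range. Hsd17b7, a sterol ketone reductase, stood at 34.1 and 21.5 CPM in heterozygous cells, outside the controls (22.2 to 30.1 CPM) on both sides. The isomerase Ebp averaged 12.8 ± 0.511 CPM in heterozygous cells and 12.6 ± 3.36 CPM in controls, and the desaturase Sc5d 31.3 ± 2.80 CPM in heterozygous cells and 30.3 ± 2.83 CPM in controls (SD, n = 2 and 4).

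The 6 genes of Srebf control and sterol sensing all had log2 fold changes below 0, where 53.9% of all tested genes did. With the length and GC trend removed, however, Srebf2 turned to 0.014. The median of the 6 was -0.13 with a range of -0.19 to -0.047, and 0 passed. The median was -0.24 without heterozygous library 1 and 0.007 without heterozygous library 2, and 4 of the 6 lay above 0 without library 2. The shared sign also failed without control 2 (Insig1 0.138, Insig2 0.030) and without control 1 (Srebf2 0.019). It failed too within the pair without Y-linked reads (Srebf1 0.281, Srebf2 0.058), where the median was -0.140. Among the other 4 libraries all 6 lay below 0, from -0.399 (Srebf1) to -0.050 (Srebf2), with a median of -0.124. Srebf2 stood at 525 and 552 CPM in heterozygous libraries, against 632, 505, 505 and 584 CPM in controls, inside the control range (log2 fold change -0.047, interval -0.44 to 0.34). Srebf1 stood at 108 and 85.2 CPM in heterozygous cells, against 115, 89.2, 94.8 and 130 CPM in controls. Heterozygous library 2 was the lowest of the 6, and the pair without Y-linked reads gave a difference of 0.28, while the other 4 libraries gave -0.40.

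Scap, which escorts the Srebf proteins to their processing site, stood at 87.4 and 111 CPM in heterozygous libraries, against 119, 100, 109 and 125 CPM in controls. Heterozygous library 1 was the lowest of the 6 and library 2 lay among the controls (log2 fold change -0.19, SE 0.18). The value was -0.021 without heterozygous library 1 and -0.373 without heterozygous library 2. Insig1, a sterol-responsive anchor of Scap, stood at 130 and 102 CPM in heterozygous cells, against 108, 173, 96.8 and 114 CPM in controls. Control 2 was the highest. The paralog Insig2 stood at 14.5 and 11.3 CPM in heterozygous cells, against 13.6, 19.6, 13.8 and 10.9 CPM in controls, within the control range. Stard4, a cytosolic sterol carrier, averaged 32.5 ± 3.92 CPM in heterozygous cells (SD, n = 2) and 35.1 ± 2.31 CPM in controls (SD, n = 4).

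The 8 fatty acid genes had a median log2 fold change of -0.049, with 3 above 0 and 5 below, and 0 passed. Scd1, a stearoyl-CoA desaturase (ENSMUSG00000037071, chromosome 19, 44394455 to 44407879, minus strand, GRCm38), had the smallest p of the 31. It stood at 83.1 and 86.8 CPM in heterozygous libraries, against 109, 96.8, 95.3 and 151 CPM in controls. Both heterozygous values lay below all controls, and control 4 lay well above the rest. The log2 fold change was -0.41 (SE 0.22, edgeR adjusted p = 0.905) and ran from -0.49 to -0.24 over 13 alternative settings, the smallest change being that without control 4. Within the pair without Y-linked reads it was -0.22, and the other 4 libraries gave -0.42. Its neighbour Scd2, the desaturase most expressed here, stood at 1679 and 1842 CPM in heterozygous cells, against 1933, 1721, 1544 and 1991 CPM in controls, inside the control range. Per kilobase of exon, Scd2 was 18.1 and 19 times as abundant as Scd1 in the heterozygous libraries, against 15.8, 15.9, 14.5 and 11.8 times in controls. This ratio was picked after its values were seen and was not tested.

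Acaca, the acetyl-CoA carboxylase that commits carbon to fatty acids, stood at 137 and 135 CPM in heterozygous libraries, against 215, 118, 174 and 205 CPM in controls. Control 2 lay below both heterozygous libraries and the other controls lay above them. The log2 fold change was -0.39 (SE 0.25), which became -0.53 without control 2 (edgeR adjusted p = 0.19, the smallest of any of the 31 genes under any setting) and 0.22 within the pair without Y-linked reads. It was -0.179 with the length and GC trend removed and -0.236 with Y-linked reads as a covariate. Fasn stood at 739 and 932 CPM in heterozygous cells, against 1218, 736, 949 and 1009 CPM in controls, and control 2 was again the lowest. Its log2 fold change of -0.23 (SE 0.23) was -0.056 without heterozygous library 1, -0.405 without heterozygous library 2 and -0.104 without control 1. Acly, which supplies cytosolic acetyl-CoA, stood at 527 and 643 CPM in heterozygous cells, against 583, 395, 511 and 506 CPM in controls. Heterozygous library 2 was the highest of the 6 (log2 fold change 0.23, SE 0.20). The value was 0.080 without that library, 0.379 without heterozygous library 1 and 0.146 without control 2. The pair without Y-linked reads gave 0.415 and the other libraries 0.273. The elongase Elovl6 averaged 102 ± 6.30 CPM in heterozygous cells and 107 ± 15.6 CPM in controls (SD, n = 2 and 4). The desaturase Fads1 averaged 314 ± 6.15 CPM in heterozygous cells and 298 ± 23.4 CPM in controls, and its neighbour Fads2 328 ± 0.209 CPM in heterozygous cells and 317 ± 18.5 CPM in controls. The ratio of Fads2 to Fads1 per kilobase was 1.5 and 1.55 in heterozygous libraries, against 1.67, 1.42, 1.6 and 1.54 in controls.

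The libraries stood apart from one another within the control group too. Control 2 was the highest of the 6 libraries for 15 of 31 genes, 7 of them among the 9 of the sterol arm and 4 among the 8 of the mevalonate arm. It was the lowest for 5, of which 4 were fatty acid genes. Control 3 was the lowest for 13 of 31. The matching shares over all tested genes were not computed, so these counts are not shown to be particular to the 31 genes. The sterol arm score, the mean log2 CPM of its genes minus the mean over controls, was 0.052 and -0.18 in the heterozygous libraries, against -0.13, 0.28, -0.23 and 0.076 in controls. The fatty acid score was -0.14 and -0.028 in the heterozygous libraries, against 0.13, -0.22, -0.066 and 0.16 in controls. In both scores the heterozygous libraries fell inside the control range, whereas the score of Srebf control and sterol sensing put heterozygous library 2 at -0.19, below all controls (-0.14 to 0.090), and heterozygous library 1 at -0.041. Within the pair without Y-linked reads the sterol arm score was lower by 0.225 log2 units in heterozygous library 1 than in control 2, and among the other libraries it was lower by 0.090 in heterozygous library 2.

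**Figure D3:**
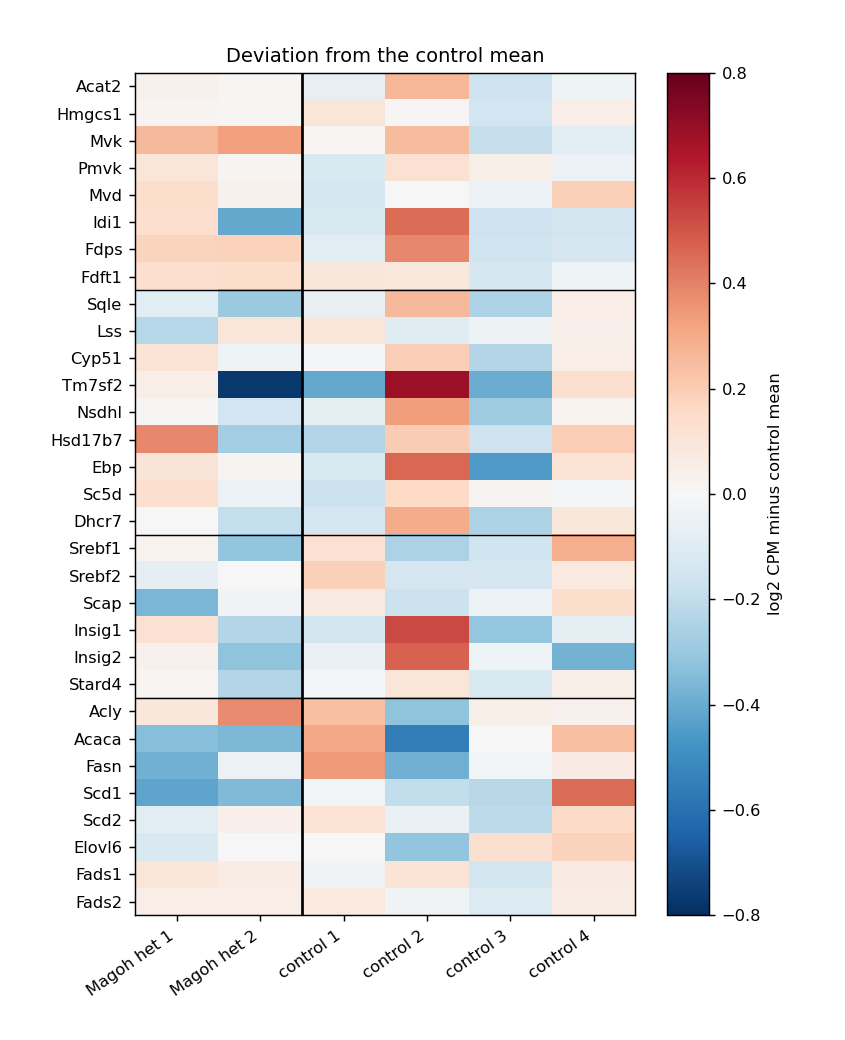
Deviation of each gene in each library from its mean over the 4 controls, in log2 CPM, with the heterozygous libraries left of the black line and horizontal lines between role groups. Control 2 is the reddest column in the sterol genes and blue in Acaca and Fasn, heterozygous library 2 is blue through most of the Srebf control genes, and Scd1 and Acaca are blue in both heterozygous columns.

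The deviations were also related to transcript length, to a degree that varied by library. Across the 31 genes the Spearman correlation of the deviation with exon length was -0.68 in heterozygous library 1 and -0.22 in heterozygous library 2, against 0.55, -0.64, 0.32 and 0.49 in controls 1 to 4. The correlations are across genes that share a library and a common baseline, so they are a description only. Acaca and Fasn, with 17074 and 10947 nt of joined exon, deviated by -0.55 and -0.39 log2 units in control 2. There Insig1 and Ebp, with 3093 and 2310 nt, deviated by 0.53 and 0.46. The shorter Pmvk and Mvd, with 1713 and 1859 nt, deviated by only 0.12 and -0.0055. The highest deviation in control 2 was that of Tm7sf2, with 4403 nt, at 0.68. With each library's length and GC trend removed, 0 of the 31 genes passed the test and the sign of Lss, Srebf2 and Scd2 turned.

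**Figure D4:**
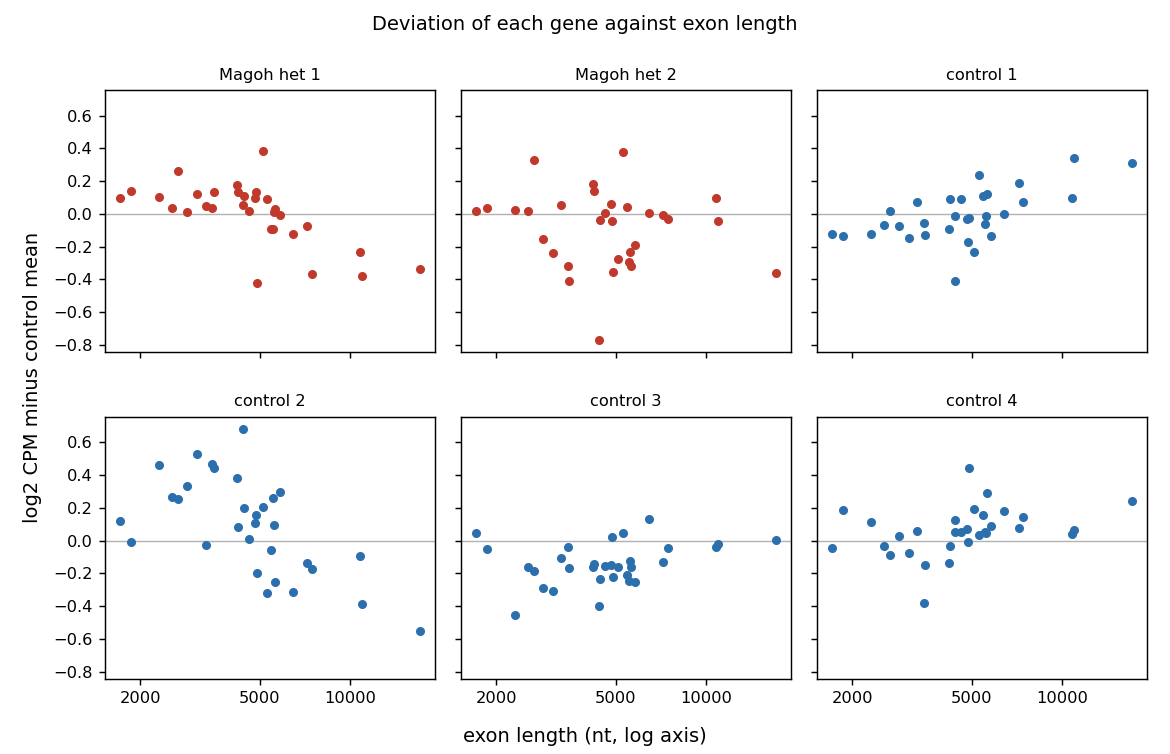
Deviation of each gene from the control mean (log2 CPM) against its exon length in nt on a log axis, 1 panel per library and 1 point per gene. Points fall with length in heterozygous library 1 and control 2 (Spearman -0.68 and -0.64) and rise in controls 1, 3 and 4.

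Further genes of the pathway were counted in lists that are not members. Of 6 other sterol synthesis genes 0 passed, with 3 above 0 and 3 below and a median of -0.097. The one with the smallest p was Acat1, a mitochondrial thiolase, at 48.9 and 38.9 CPM in heterozygous libraries, against 34, 43.7, 29.3 and 30.3 CPM in controls, which overlap. Of 8 genes of Srebf processing and turnover 0 passed (2 above 0, 6 below, median -0.13), and the ubiquitin ligase Syvn1 averaged 65.6 ± 10.5 CPM in heterozygous cells and 78.2 ± 11 CPM in controls (SD, n = 2 and 4). Of 21 tested genes among 22 of further fatty acid synthesis and elongation 0 passed (9 above 0, 12 below, median -0.095), and the reductase Hsd17b12 averaged 70.1 ± 19.1 CPM in heterozygous cells and 89.8 ± 21.9 CPM in controls. Of 13 genes of fatty acid oxidation 0 passed (3 above 0, 10 below, median -0.12). Cpt1c, a brain member of the carnitine palmitoyltransferase family, stood at 27.3 and 31.4 CPM in heterozygous libraries, above all controls at 20.7, 23.7, 25.9 and 22.5 CPM. It was the 1 gene of the 13 to do so (6.17% of all tested genes did), and 1 lay below all controls (8.14% did). Below all controls too were 1 of the 6 other sterol synthesis genes and 1 of the 8 of Srebf processing and turnover.

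Sterol uptake, export and storage held the smallest p values of the further lists. Of its 14 genes 0 passed over all genes, 9 were above 0 and 5 below, with a median of 0.027. An unadjusted p under 0.05 was reached by 3, all lower, where 3.98% of all tested genes were. Both heterozygous libraries lay below all controls for 3 as well, where 8.14% of all tested genes did. They lay above all controls for 1, where 6.17% of all tested genes did. Soat1, the acyltransferase that stores cholesterol as esters, had the smallest p. It stood at 35 and 31.5 CPM in heterozygous libraries, against 41.1, 48, 46.8 and 48.6 CPM in controls, with no overlap. Its log2 fold change was -0.47 (SE 0.16, edgeR adjusted p = 0.832), and DESeq2 gave an adjusted p of 0.407.

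Markers of cell types that the sort could hold differed in level between libraries, and no gene of these lists was at 0 in all 6. The summed level of 8 neuron markers was 3432 and 4091 CPM in heterozygous libraries, against 1986 to 2907 CPM in controls, and 6 of the 8 lay above all controls in both heterozygous libraries (6.17% of all tested genes did), with 0 past the adjusted threshold. The 8 radial glia markers summed to 3436 and 4057 CPM in heterozygous libraries, against 3414 to 5030 CPM in controls, and 2 of the 8 lay below all controls in both heterozygous libraries (8.14% of all tested genes did). The 8 MGE markers summed to 1311 and 2274 CPM in heterozygous libraries, against 868 to 1579 CPM in controls. Of these 8, 7 were higher on average in heterozygous cells (the list median was 0.575 log2 units), 1 lay above all controls, and 0 passed. The 7 erythroid markers summed to 206 and 0.0814 CPM in heterozygous libraries, against 17.2 to 69.7 CPM in controls, and the 5 microglia markers to 7.47 and 0 CPM in heterozygous libraries, against 1.72 to 62.3 CPM in controls. The 6 oligodendrocyte lineage markers, whose cells make much sterol later in life, summed to 59.4 and 71.2 CPM in heterozygous libraries, against 46 to 68.4 CPM in controls. The 5 endothelial markers summed to 8.23 and 7.89 CPM in heterozygous libraries, against 5.09 to 25.1 CPM in controls, the 6 surface ectoderm markers to 11.8 and 5.31 CPM in heterozygous libraries, against 9.6 to 15.6 CPM in controls, and the 5 mesenchyme markers to 152 and 56.6 CPM in heterozygous libraries, against 92 to 162 CPM in controls. In such bulk samples fewer cells of a type and less RNA per cell cannot be told apart, and the part of these marker levels in the values above was not tested.

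Some of the 31 counts can include reads of other genes or lack reads shared with them. Exons of 7 of the 31 genes overlap those of another gene in the count table. Among these, Cyp51 with Akap9, Fdft1 with Ctsb and Srebf1 with Rai1 overlap on opposite strands. No source used here states the strand setting of the counting, on which the effect of these overlaps depends. Tm7sf2 and Vps51 lie on the same strand, so their overlap does not depend on that setting. Acat2 has a paralog, Acat3, at 5.04 and 1.22 CPM in heterozygous libraries, against 1.74 to 3.45 CPM in controls, and reads the 2 copies share may be split between them or left out.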

How the data were processed

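RNA was measured in 6 libraries of sorted tdTomato-positive E11.5 cells, 2 heterozygous and 4 control. Trim Galore, STAR, HTSeq and build mm10 are named by the submitters' processing notes, with no versions, and no source used here gives the annotation or the strand setting. The authors deposited raw read counts for 38561 genes, which were used, and a normalized table, which was not. Columns were matched to samples by code, and 0 columns belonged to no sample.

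Genes were kept by filterByExpr (16495), scaled by TMM and tested with edgeR 4.0.16 (R 4.3.3; robust glmQLFit, then a two-sided glmQLFTest), and p-values were adjusted by Benjamini-Hochberg across every gene kept. SEs were derived from the fold change and its F statistic, and 95% intervals use the moderated degrees of freedom. Log2 CPM used a prior count of 2. Libraries are numbered in accession order. Whether they came from separate embryos is not stated, and the p-values reflect sample-to-sample spread that may be technical. Library totals of 37429290 to 49189360 reads carry no molecular identifiers. Exon lengths and coordinates are from GENCODE M21 (GRCm38), known for 98.6% of tested genes.

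Alternatives were DESeq2 1.42.0, limma-voom (limma 3.58.1), RLE scaling, no count filter, edgeR without robust fitting, Y-linked reads as a covariate, removal of each library's length and GC trend (loess, span 0.5), leaving out each library and values within libraries alike in Y-linked reads. Members, lists and alternatives were chosen with earlier results of these data known. Per-library values were planned for Srebf1, Srebf2, Scap, both Insig and both Scd genes, for the 4 smallest p in each role group and for genes outside the control range. Other members were added for completeness. Up to 3 genes of each further list could be named, and the one with the smallest p was. Scripts were tested on simulated counts.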

Additional observations from a re-analysis of the deposited data

Results flagged for a closer look

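In 36 checks of the 4 controls (31 genes and 5 scores), 2 found a control far from the other 3, a gap that chance gives in about 1 of 20 groups. Both were genes of the mevalonate arm, and both were high in control 2. Idi1 stood at 46.4 CPM there, a gap of 0.948 of the range of the controls. Fdps stood at 179 CPM there, a gap of 0.896 of the range.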

How the results depend on the processing

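The count of the 31 genes past the threshold was 0 under every alternative run (13 settings). Over all genes DESeq2 called 75 and the 12 others 0, as edgeR did. The median of all 31 genes ran from -0.091 to 0.048 when each library was left out in turn, that of the mevalonate arm from 0.037 to 0.121, of the sterol arm from -0.155 to 0.049, of Srebf control from -0.241 to 0.007 and of fatty acid genes from -0.115 to 0.027. Leaving out a heterozygous library leaves 1, which is assumed to vary like the controls. With the length and GC trend removed the medians of all 31 genes and of the sterol arm turned to 0.014 and 0.025, and with Y-linked reads as a covariate that of the fatty acid genes to 0.007. Within the pair without Y-linked reads the sterol arm median was -0.302 and that of the mevalonate arm -0.010. With Y-linked reads as a covariate the sign turned for Acat2 (-0.027), Cyp51 (-0.020), Hsd17b7 (-0.057), Ebp (-0.044), Sc5d (-0.006) and Elovl6 (0.019), and with the length and GC trend removed for Lss (0.025), Srebf2 (0.014) and Scd2 (0.003). The cause was not tested. Leaving out a library turned the sign of 1 to 8 of the 31 genes (Acat2 -0.036 to 0.125, Hmgcs1 -0.038 to 0.043, Idi1 -0.421 to 0.112, Lss -0.232 to 0.111, Cyp51 -0.042 to 0.112, Nsdhl -0.174 to 0.049, Hsd17b7 -0.278 to 0.372, Ebp -0.107 to 0.212, Sc5d -0.037 to 0.132, Dhcr7 -0.194 to 0.008, Srebf1 -0.320 to 0.015, Srebf2 -0.091 to 0.019, Insig1 -0.259 to 0.138, Insig2 -0.337 to 0.030, Stard4 -0.223 to 0.010, Scd2 -0.098 to 0.048, Elovl6 -0.150 to 0.006). No paired analysis was possible because the groups share fewer than 2 numbers in their sample codes (heterozygous library 2 and control 1 share 1, and no other pair across the groups does). Within the controls, 2 and 3 also share a number. What the number marks is not stated, so the controls may not all be independent. The lowest count of any of the 31 genes in a library was 404 reads, and the small number of heterozygous libraries (2) limits the precision.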
